A study of Mus musculus with 8 samples.

Results

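The genes described here encode the machinery that folds chromatin into loops and carries enhancer signals to RNA polymerase II. They were chosen by symbol, as listed genes of cohesin and its loaders, CTCF and the factors that tie promoters together, the subunits of Mediator, and the largest Pol II subunits. All 49 listed symbols were found among the 52636 gene identifiers of the count tables. They were measured by RNA-seq in E14 cells, a mouse embryonic stem cell line derived from the blastocyst, in 2 libraries of unmodified cells (WT) and 2 libraries of a Klf4 knockout of the same line (KO). KLF4 is a zinc-finger transcription factor of the pluripotency network. Contacts between sites bound by Pol II were measured by HiChIP, in which chromatin ends that lie close together in the nucleus are ligated and then enriched with an antibody, and each genotype has 2 HiChIP samples pooled into 1 list of paired sites. The labels describe the same culture for every sample, WT and KO alike, in media with 15% serum: one with 10 ng/mL LIF, 1 µM of the MEK inhibitor PD0325901 and 3 µM of the GSK3 inhibitor CHIR99021, and one with 1000 U/mL LIF. Which medium each library came from, how the KO was made and whether it is 1 clone could not be read from the labels. The KO count columns carry the letters B and F in place of replicate numbers, and are called KO B and KO F below.

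Cohesin is a ring-shaped complex that extrudes loops of DNA until it meets CTCF, a zinc-finger protein bound to its motif. NIPBL and MAU2 load the ring, WAPL releases it, and the PDS5 proteins bind it and tune both steps. Mediator is the large complex that bridges activators at enhancers and Pol II at promoters. Its head and middle modules contact the polymerase, its tail binds activators, and a separable kinase module of CDK8 or CDK19, cyclin C, MED12 and MED13 or MED13L controls that contact. In embryonic stem cells, cohesin and Mediator occupy active enhancers and promoters together, and their subunits are needed to keep the cells pluripotent.

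The 4 RNA libraries held between 8287497 and 9762190 counts assigned to genes. The Klf4 counts were 2882 and 2421 in WT and 0 in both KO libraries. CPM are counts scaled to library sizes normalised by TMM. In CPM the KO level was at least 1594-fold lower, against a floor of 3 counts over both KO libraries together. Correlations of log CPM were 0.96 between the WT libraries, 0.97 between the KO libraries and 0.88 to 0.92 between genotypes. The 10 embryonic stem cell markers were all detected, with a summed level of 6837 to 8890 CPM in WT and 7713 to 8605 in KO. Summed fibroblast and feeder markers reached 6.96 to 8.39 CPM in WT and 12.9 to 14.1 in KO, with Lum, Postn and Prrx1 at 0 in every library. The summed primitive endoderm markers were 7.97 to 8.70 and 8.88 to 11.6, those of trophoblast 96.5 to 108 and 76.5 to 136, and those of neural progenitors 34.9 to 40.2 and 14.2 to 21.2. Single markers moved apart within these sums. Gata6 had a log2 fold change (KO over WT) of 2.91 (edgeR FDR = 0.026) and Gata4 one of -1.86 (edgeR FDR = 0.13). Pax6 had one of 6.16 (edgeR FDR = 0.0097) and Nes one of -2.05 (edgeR FDR = 0.011). Hand1 had one of 3.07 (edgeR FDR = 0.039) and Cubn one of 7.17 (edgeR FDR = 0.015). Among the 10 embryonic stem cell markers only Utf1 had an edgeR FDR under 0.05 (log2 fold change 2.38, edgeR FDR = 0.0052). Utf1 had 52.4 and 89.3 CPM in WT and 369 in both KO libraries. Counts in WT were few for some of these, 4 and 3 for Gata6 and 1 and 0 for Pax6. They were 2 and 2 for Hand1 and 0 and 0 for Cubn. The part of the markers in the results was not tested.

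No gene of the set passed the test between genotypes. All 49 were expressed above the filter on low counts, and none had a false discovery rate (FDR, edgeR quasi-likelihood test with Benjamini-Hochberg adjustment over 15517 tested genes) under 0.05, where 8.3% of all tested genes were called, 2.96% higher and 5.34% lower. The smallest FDR was 0.077 and the largest 0.987. At an unadjusted p under 0.05 there were 3, Ccnc, Cdk8 and Pds5b, against 24.4% of all tested genes. DESeq2 and limma voom called none of the 49 either, with 4 and 3 at an unadjusted p under 0.05, while they called 8.83% and 7.76% of all tested genes. RLE scaling, library totals alone and a filter at 1 CPM in 2 libraries also called none, against 8.22%, 7.3% and 8.06% of all tested genes. Log2 fold changes (KO over WT) were positive for 37 and negative for 12, with a median of 0.24, while 49.9% of all tested genes were positive and their median was -0.0015. In bulk RNA, fewer cells expressing a gene and less RNA per cell cannot be told apart.

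**Figure D1:**
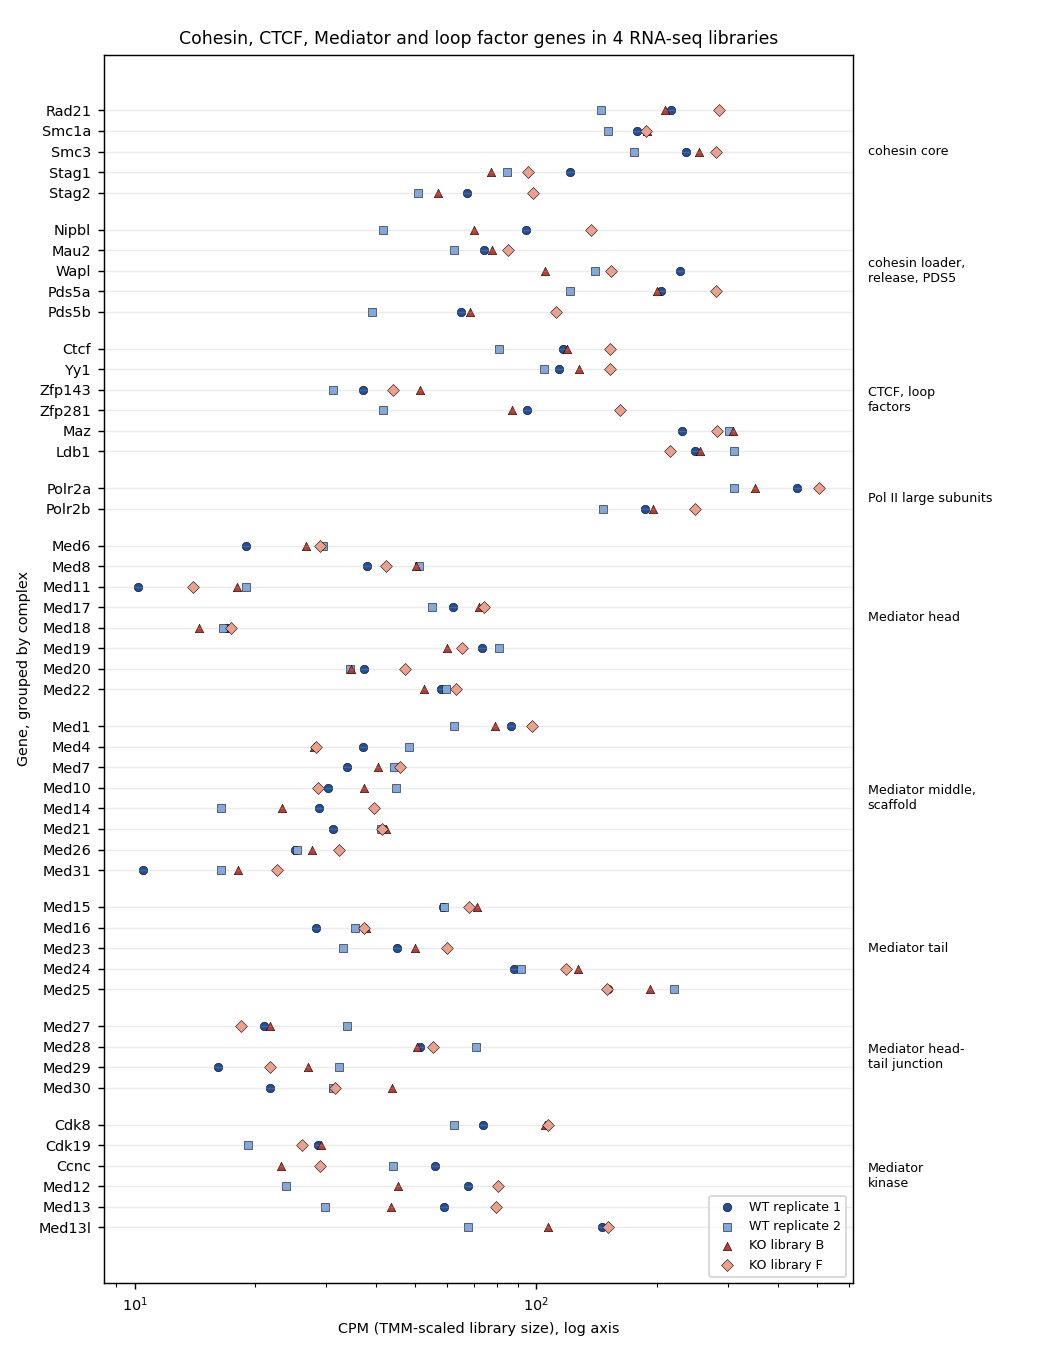
CPM of the 49 genes (log axis, not scaled by gene length, so levels compare libraries of 1 gene and not genes), with WT libraries as blue points and KO libraries as red and orange points, grouped by complex. Both KO libraries lay above both WT libraries in 18 genes, below both in 3, and overlapped them in 28.

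Both KO libraries lay above both WT libraries in 18 of the 49 genes, where 26.0% of all tested genes did so. They lay below in 3, Med4, Med19 and Ccnc, against 27.5% of all tested genes. In the other 28 the genotypes overlapped. The share on the high side was 36.7% and that on the low side 6.12%.

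For the promoters of the set, sequence was taken from the RefSeq table of gene starts on GRCm38, which holds 50 entries for 41 of the 49 genes, each running from 250 bases before the start to 50 after it. The letters GGGNGTGG, a core that KLF proteins bind, were counted because KLF4 is the factor removed. All 5 motifs searched were counted on both strands, and none is contained in another, although matches to different motifs can share bases. They occurred in 12% of the 50 entries and 17.6% of all 32851 entries. The 6 genes that held them encode Mediator subunits, which are 31 of the 49 genes. Their sites are printed on the strand of the gene, 5′ to 3′, 30 bases each, with the match in capitals (CCACNCCC is the same core on the opposite strand):
Med1 (chr11:98192962-98192991, minus strand): gaggtggggacCCACGCCCctccagggcca
Med1 (chr11:98193029-98193058, minus strand): gtgagtgactgGGGGGTGGcggggaaggag
Med12 (chrX:101274106-101274135, plus strand): ccccgcctccgCCACCCCCcttctctcggc
Med14 (chrX:12762163-12762192, minus strand): gcgccttgcgcCCACCCCCctttccgcttt
Med15 (chr16:17722852-17722881, minus strand): gcggcggcgccGGGGGTGGccggtagggac
Med21 (chr6:146642494-146642523, plus strand): tgcttccttaaCCACGCCCctcaaggagga
Med26 (chr8:72548458-72548487, minus strand): agcgtccgttgCCACGCCCaactgcctccc
Med26 (chr8:72548486-72548515, minus strand): cagtcccgagtGGGCGTGGccttcagatag
The log2 fold changes of these genes lay between 0.21 for Med21 and 0.47 for Med14, inside the range of the Mediator genes without the letters. A match describes letters and not binding.

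The letters ATGGCGG, the core bound by YY1, were more frequent at these promoters, in 18% of the 50 entries against 4.05% of all entries, a difference that was not tested. They are shown because YY1 is itself one of the loop factors and because the 9 genes come from core cohesin, the loop factors and 4 parts of Mediator. The capitals mark the match, or CCGCCAT where it lies on the opposite strand:
Ctcf (chr8:105636534-105636563, plus strand): tgcaccgcgccgCCGCCATtttgtgtccga
Maz (chr7:127026974-127027003, minus strand): tccctcctccctCCGCCATggatcccagca
Smc3 (chr19:53600382-53600411, plus strand): cctccgcggccgCCGCCATtttgtttggcc
Stag1 (chr9:100643237-100643266, plus strand): gaagctctaaaaATGGCGGgcggcaaccca
Med4 (chr14:73510049-73510078, plus strand): gtcagcggggcgATGGCGGcttcttcaagt
Med13 (chr11:86357556-86357585, minus strand): gaggcggcggtaATGGCGGatggtgggttg
Med16 (chr10:79908889-79908918, minus strand): agggggccggcgcgggcctagagATGGCGG
Med21 (chr6:146642599-146642628, plus strand): tgcgtggtgaacATGGCGGatagactcact
Med27 (chr2:29346830-29346859, plus strand): tgtgacagctgcaacATGGCGGacgtgctg
In 8 of the 9 the first base of the match lay within 50 bases of the listed start, from 2 bases before it in Smc3 to 44 after it in Med16. In Stag1 it lay at position -199 from a start that is not the outermost one. Several of these matches begin with ATG after the start, and whether they are initiation codons was not examined. The log2 fold changes of the 9 genes ran from -0.60 in Med4 to 0.47 in Med13, so genes with the letters lay on both sides of 0.

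A core of the long motif of ZFP143 occurred in 4.0% of the 50 entries against 1.07% of all, in the promoters of Med11 and Wapl. They are printed with the match in capitals, that of Med11 on the opposite strand:
Med11 (chr11:70451857-70451886, plus strand): agcatcctggGAATTGTAGTgttcgctgca
Wapl (chr14:34673756-34673785, plus strand): ggaagagagaACTACAACTCccgtcgggcc
The GC box GGGCGGGG was found in 26.0% against 17.6%, and a CTCF core in 14% against 8.61%. The median GC content of the 50 entries was 59.5%, against 52.7% for all entries, and the effect of GC content on these counts of letters was not tested. Each motif was found in at most 12 of the 41 genes.

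Among the core cohesin subunits, 4 of 5 had a positive log2 fold change, with a median of 0.37, and none passed the test. Rad21, the kleisin that closes the ring, had 217 and 145 CPM in WT and 209 and 285 in KO. Its log2 fold change was 0.45 ± 0.29 (SE, n = 2 libraries per genotype, edgeR FDR = 0.39), and the genotypes overlapped. The ATPase subunits Smc1a and Smc3 had both KO libraries above both WT libraries, with log2 fold changes of 0.19 and 0.37. Smc3 had 237 and 175 CPM in WT and 254 and 279.9 in KO.

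The STAG proteins are alternative subunits that hold the ring to chromatin, and a ring carries one or the other. Stag1 had 122 and 84.7 CPM in WT and 77.4 and 95.6 in KO (log2 fold change -0.25 ± 0.27, edgeR FDR = 0.61). Stag2 had 67.2 and 50.8 in WT and 56.9 and 98.1 in KO (log2 fold change 0.39 ± 0.32, edgeR FDR = 0.50). Each gene overlapped between genotypes, but the share of the pair's counts that fell on Stag1 did not. That share was 64.4% (exact binomial 95% interval 62.1 to 66.6, counting error only, as for all intervals below) and 62.5% (59.8 to 65.2) in WT, and 57.6% (54.7 to 60.5) and 49.4% (46.9 to 51.8) in KO. The 2 KO libraries lay farther from each other than the lower WT library lay from the higher KO library, and 2 libraries against 2 cannot give an exact two-sided p below 0.333. The counts were not scaled by transcript length, so the share compares libraries and says nothing of which paralog has more transcripts.

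The factors that load, release and hold cohesin had the highest median of any group, 0.56, with 4 of 5 log2 fold changes positive. Pds5b (ENSMUSG00000034021, chr5:150673713-150810669, GRCm38) had 64.8 and 39.0 CPM in WT and 68.4 and 112 in KO. Its log2 fold change was 0.80 ± 0.34 (edgeR FDR = 0.20). Without WT replicate 1 the log2 fold change was 1.20 (edgeR FDR = 0.012), without WT replicate 2 it was 0.45, and without KO F 0.41. Both KO libraries lay above both WT libraries, with KO B close to WT replicate 1.

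Nipbl, the loader, had the largest ratio between libraries of a genotype in this group, with 94.4 and 41.4 CPM in WT and 69.8 and 137 in KO (log2 fold change 0.61 ± 0.44, edgeR FDR = 0.44). Its partner Mau2 had a log2 fold change of 0.25, with both KO libraries above both WT libraries. Pds5a had 205 and 121 in WT and 199.6 and 281 in KO (log2 fold change 0.56 ± 0.32, edgeR FDR = 0.32). Pds5a took 76.0% and 75.6% of the counts of the PDS5 pair in WT and 74.5% and 71.5% in KO, with no overlap between the genotypes but with WT and KO B within each other's counting intervals.

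Wapl, which opens the ring, was the only gene of this group with a negative log2 fold change, -0.51 ± 0.31 (edgeR FDR = 0.37). It had 228 and 140.3 CPM in WT and 105 and 153 in KO, and the genotypes overlapped. Wapl lies on chromosome 14, where the median log2 fold change of 466 tested genes was -0.63. All 12 tested genes within 2 Mb of Wapl had negative values, with a median of -1.14, and 6 of them were called lower. Med4 is the other gene of the set on chromosome 14, and 12 of its 13 tested neighbours were negative, with a median of -1.03 and 4 called lower.

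Of CTCF and the factors that tether promoters, 5 of 6 had positive log2 fold changes, with a median of 0.41, and none passed the test. Ctcf (ENSMUSG00000005698) had 117 and 81.0 CPM in WT and 119 and 153 in KO. Its log2 fold change was 0.46 ± 0.27 (edgeR FDR = 0.35), and KO B stood just above WT replicate 1. Yy1, a zinc-finger protein that dimerises to join enhancers to promoters, had 114 and 104.5 in WT and 128 and 152 in KO (log2 fold change 0.36 ± 0.23, edgeR FDR = 0.40). Zfp143, which binds promoters and CTCF-linked loop ends, had 37.0 and 31.1 in WT and 51.5 and 44.1 in KO (log2 fold change 0.49 ± 0.26, edgeR FDR = 0.30). In all 3 genes both KO libraries were the higher ones, by margins that the test did not separate from the spread between libraries.

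Zfp281, a zinc-finger regulator of the exit from pluripotency, had the largest positive log2 fold change of the 49, 0.86 ± 0.43 (edgeR FDR = 0.26). Its CPM values were 94.9 and 41.6 in WT and 87.0 and 161 in KO, so KO B lay below WT replicate 1. Maz, a zinc-finger protein that can act beside CTCF at insulators, had 230.5 and 301.5 in WT and 309 and 282 in KO (log2 fold change 0.15). Ldb1, a dimerising adaptor of enhancer loops, had 248.7 and 311 in WT and 256 and 215 in KO (log2 fold change -0.25). Both overlapped between genotypes.

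The 2 largest subunits of Pol II, the target of the HiChIP antibody, form its active centre. Polr2b had 186 and 147 CPM in WT and 196 and 248.6 in KO (log2 fold change 0.42 ± 0.25, edgeR FDR = 0.37). Polr2a (ENSMUSG00000005198) had 445 and 311 in WT and 351 and 505 in KO, and its log2 fold change of 0.18 ± 0.30 turned to -0.09 without WT replicate 2 and -0.10 without KO F. The 4 values of Polr2b did not overlap between genotypes and those of Polr2a did, and neither gene passed the test.

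**Figure D2:**
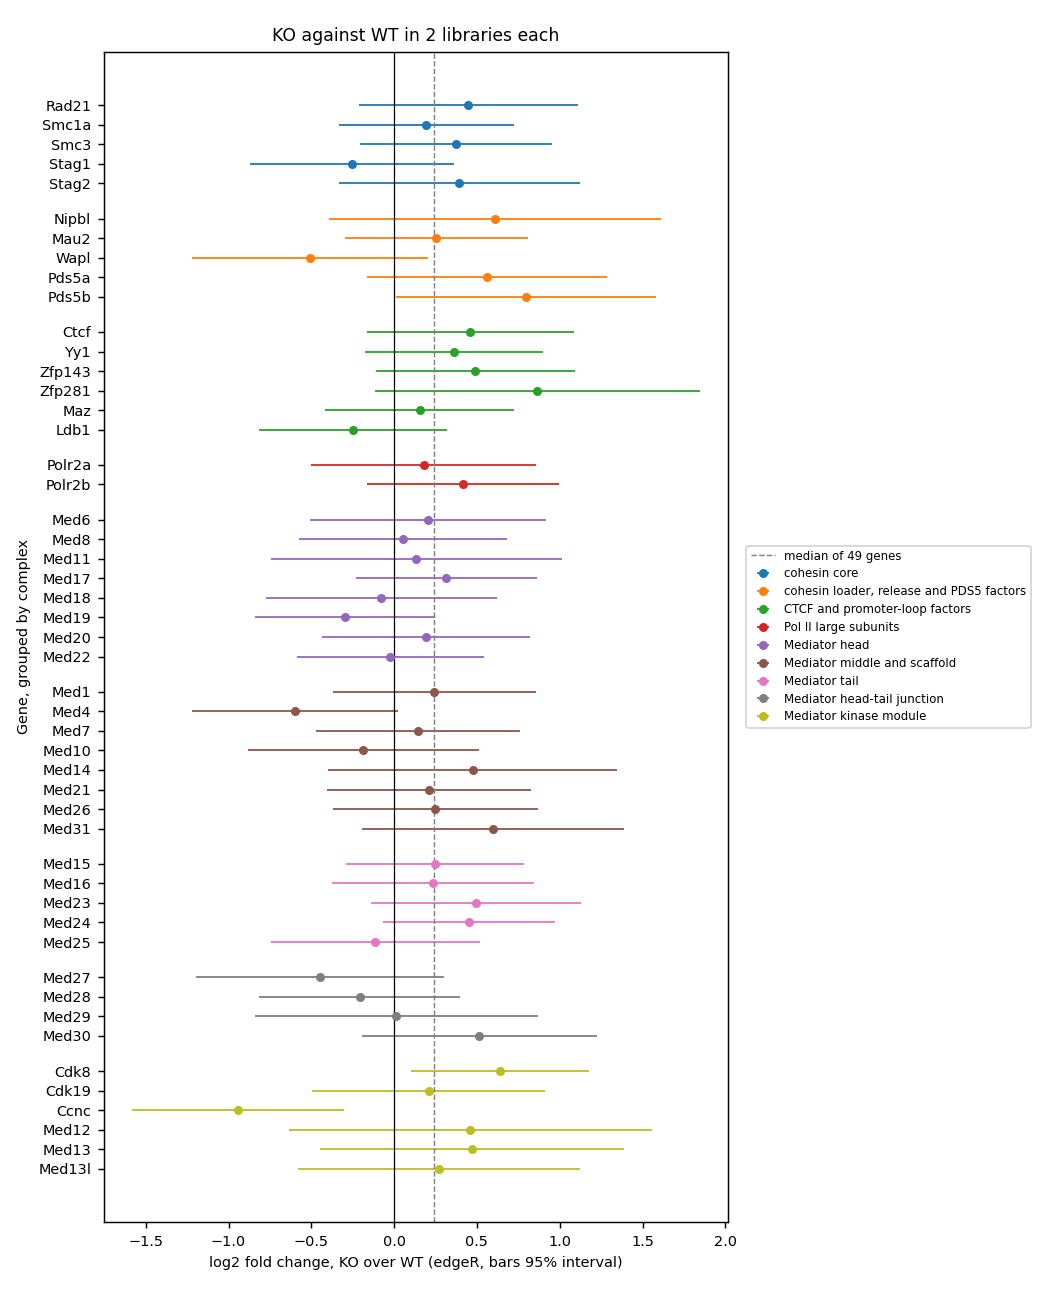
Log2 fold change of KO over WT for the 49 genes (points) with 95% intervals from edgeR (bars), coloured by complex, with a dashed line at their median of 0.24. The intervals of Ccnc, Cdk8 and Pds5b lie off 0 before adjustment, and 46 intervals include it.

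The 31 Mediator genes had a median log2 fold change of 0.21 (22 positive, 9 negative), and the 18 genes outside Mediator one of 0.38 (15 positive, 3 negative). This difference was not tested. By module, the medians were 0.09 for the head, 0.23 for the middle and scaffold, 0.25 for the tail, -0.10 for the subunits at the junction of head and tail, and 0.36 for the kinase module. No core subunit of any module passed the test.

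In the head, which contacts the polymerase, 5 of 8 genes were positive. Med17, the scaffold of the head, had 62.2 and 55.1 CPM in WT and 71.9 and 74.1 in KO, with a log2 fold change of 0.32 ± 0.24 (edgeR FDR = 0.47). Med18 had 17 and 16.6 in WT and 14.5 and 17.4 in KO, and Med22 had 57.9 and 59.5 in WT and 52.6 and 63.0 in KO, with log2 fold changes of -0.08 and -0.02. Med19 was the head gene with both KO libraries below both WT libraries, at 73.3 and 80.7 against 60.1 and 65.3. The remaining head genes, Med6, Med8, Med11 and Med20, had log2 fold changes of 0.05 to 0.20.

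In the middle module and the scaffold, 6 of 8 genes were positive. Med4 had 37.0 and 48.2 CPM in WT and 27.9 and 28.3 in KO. Its log2 fold change was -0.60 ± 0.27 (edgeR FDR = 0.22), and the KO values lay close together below both WT values. Med14, the backbone that joins the modules, had a log2 fold change of 0.47, Med1, which binds nuclear receptors, 0.24, and Med26, which hands elongation factors to Pol II, 0.25. Med7, Med10, Med21 and Med31 ranged from -0.19 to 0.60.

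The tail, which activators bind, had both KO libraries above both WT libraries in 4 of 5 genes. Med24, which had the smallest FDR of them, had 87.9 and 91.6 CPM in WT and 127 and 118 in KO (log2 fold change 0.45 ± 0.23, edgeR FDR = 0.26). Med15, Med16 and Med23 had log2 fold changes of 0.25, 0.24 and 0.49. Med25 had 150.6 and 220.3 in WT and 192 and 150.4 in KO, with the genotypes overlapping. At the junction of head and tail, Med30 had 21.8 and 31.1 in WT and 43.8 and 31.6 in KO (log2 fold change 0.51 ± 0.31, edgeR FDR = 0.36). Med29 had 16.2 and 32.3 in WT and 27.1 and 21.8 in KO, with a log2 fold change of 0.01. Med27 and Med28 had log2 fold changes of -0.45 and -0.21.

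The kinase module held the most negative value of the 49, in Ccnc, and the smallest p of the positive ones, in Cdk8. Ccnc, which encodes cyclin C (ENSMUSG00000028252, chr4:21727701-21759922, GRCm38), had 526 and 405 counts in WT and 193 and 244 in KO, or 55.9 and 44.1 CPM against 23.1 and 28.9. Its log2 fold change was -0.94 ± 0.28 (95% interval -1.58 to -0.30, edgeR FDR = 0.077). Both KO libraries lay below both WT libraries. The FDR was 0.021 without WT replicate 2 and 0.43 without KO B.

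Ccnc did not stand alone at its locus. All 7 other tested genes within 2 Mb had negative log2 fold changes, with a median of -1.10, and none was called at FDR 0.05. Tstd3, whose span overlaps that of Ccnc, had -1.19 (edgeR FDR = 0.058), and Coq3 had -1.10 (edgeR FDR = 0.071). Usp45, Pnisr, Fbxl4, Ttpa and Ggh ranged from -0.62 to -1.23. The strand setting of the counting is not stated, so reads in the overlap of Ccnc and Tstd3 cannot be assigned with certainty.

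Cdk8, the kinase that cyclin C activates (ENSMUSG00000029635, chr5:146230795-146302874, GRCm38), had 73.5 and 62.4 CPM in WT and 105 and 107 in KO. Its log2 fold change was 0.64 ± 0.24 (edgeR FDR = 0.14), and the KO values lay close together above both WT values. The 35 tested genes within 2 Mb of Cdk8 had a median of 0.02, with none called. For other genes of the set with positive values, neighbours within 2 Mb went either way. The median log2 fold change of the neighbours was 0.46 for Nipbl and 0.38 for Rad21 and Med30. It was -0.31 for Zfp281 and -0.43 for Yy1. The part of the locus in the fold changes was not tested. The Cdk8 paralog Cdk19 had 28.7 and 19.1 in WT and 29.1 and 26.2 in KO (log2 fold change 0.21 ± 0.31). Cdk8 took 71.9% and 76.5% of the counts of this pair in WT and 78.3% and 80.3% in KO. So the cyclin and its kinase lay on opposite sides of 0, neither of them past the adjusted threshold.

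The large subunits that connect the kinase to the core varied widely within each genotype. Med12, which switches on the kinase, had 67.6 and 23.8 CPM in WT and 45.3 and 80.4 in KO (log2 fold change 0.46 ± 0.48). Med13, the linker to the core, had 59.1 and 29.8 in WT and 43.6 and 79.6 in KO (log2 fold change 0.47 ± 0.40). Its paralog Med13l had 146 and 67.7 in WT and 107 and 151 in KO (log2 fold change 0.27 ± 0.37). In all 3 the order was the same, with WT replicate 2 lowest and KO F highest. Med13l took 71.2% and 69.4% of the counts of its pair in WT and 71.0% and 65.4% in KO, and these shares overlapped.

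That order of libraries recurred across the complexes. WT replicate 2 was the lowest library and KO F the highest in 21 of 49 genes, against 18.9% of all tested genes. The 21 included Rad21, Smc3, Stag2, Nipbl, Mau2, both PDS5 genes, Ctcf, Yy1, Zfp281 and both Pol II genes. The reverse order was found in 4, Ldb1, Med10, Med25 and Med27, against 16.9%. Across the 49 genes, the log2 ratio of WT replicate 1 to WT replicate 2 and that of KO F to KO B had a Spearman correlation of 0.79 and a Pearson correlation of 0.81. Across 15372 tested genes the same 2 correlations were 0.53 and 0.47. These describe 4 libraries shared by all genes, and genes are not independent replicates. The ratio of the WT libraries also went with the genomic span of the gene, with a Spearman correlation of 0.63 across the 49 and 0.44 across all genes with a position. For the ratio of KO F to KO B, the Spearman correlations with span were 0.37 and 0.25. The log2 fold change (KO over WT) of the 49 had a Spearman correlation of 0.31 with span and a Pearson correlation of 0.15. The part of this library difference in the fold changes was not tested.

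**Figure D3:**
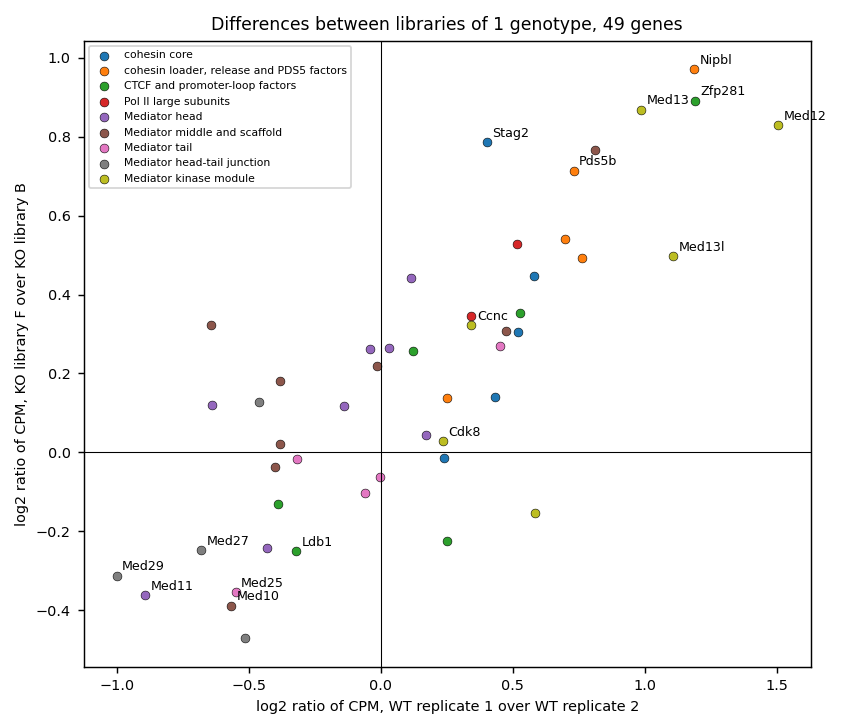
Log2 ratio of CPM between the 2 WT libraries (x axis) and between the 2 KO libraries (y axis) for the 49 genes, coloured by complex. Points run from Med29 and Med11 at the lower left to Nipbl, Zfp281 and Med12 at the upper right (Spearman 0.79, n = 49 genes in the same 4 libraries).

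The calls depended on single libraries. With 1 library left out, its genotype keeps a single library, which the fit assumes to vary like the 2 of the other genotype. Without WT replicate 1, 7 genes were called higher in KO in edgeR, where 7.09% of all tested genes were. They were Zfp281 (log2 fold change 1.57, FDR = 0.0012), Med12 (1.39, FDR = 0.0072), Nipbl (1.31, FDR = 0.0073), Pds5b (1.20, FDR = 0.012), Pds5a (0.98, FDR = 0.031), Med13l (0.92, FDR = 0.042) and Med13 (1.04, FDR = 0.043). Without WT replicate 2 none of those was called and Ccnc was called lower, where 6.46% of all tested genes were. Without KO B and without KO F none was called, against 6.14% and 6.19% of all tested genes.

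Related genes outside the set were examined by the same fit, from lists chosen by complex. Of 71 tested, 4 were called higher and 2 lower, together 8.45%, near the 8.3% of all tested genes. Among 11 other cohesin genes, Stag3 and Espl1 rose and Rec8 fell. Stag3, the meiotic STAG subunit, had 50.6 and 38.2 CPM in WT and 111 and 138 in KO (log2 fold change 1.49 ± 0.27, edgeR FDR = 0.015, and 0.061 without KO F). Rec8, the meiotic kleisin, had 31.7 and 51.7 in WT and 11.4 and 6.75 in KO (log2 fold change -2.20 ± 0.39, edgeR FDR = 0.014). Espl1, the protease that cleaves cohesin at anaphase, had 168 and 130.4 in WT and 299 and 313 in KO (log2 fold change 1.03 ± 0.25, edgeR FDR = 0.039). The somatic counterparts of the meiotic subunits, Rad21, Stag1 and Stag2, did not pass the test.

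Among 14 CTCF-like and loop-linked genes, Ctcfl and Phf6 rose. Ctcfl, the germline paralog of Ctcf, had 1.17 and 0.653 CPM in WT and 4.91 and 4.74 in KO (log2 fold change 2.38 ± 0.54, edgeR FDR = 0.033, and 0.10 without WT replicate 2). Phf6, a chromatin protein, had 16.3 and 8.70 in WT and 36.9 and 65.3 in KO (log2 fold change 2.03 ± 0.41, edgeR FDR = 0.022). Among 20 other Mediator and elongation genes only Med12l, the paralog of Med12, was called, with 15.4 and 6.09 in WT and 1.44 and 2.01 in KO (log2 fold change -2.63 ± 0.57, edgeR FDR = 0.028, and 0.063 without WT replicate 1). None of 11 other Pol II subunits was called, the closest by p being Polr2k (1.01, FDR = 0.26) and Polr2d (0.32, FDR = 0.52). None of 15 condensin and other SMC genes was called, the closest being Ncapg (log2 fold change 0.76, FDR = 0.090) and Ncapd3 (0.78, FDR = 0.14), both of which were called without WT replicate 1, with the spread taken from the KO libraries.

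The HiChIP lists give pairs of anchors, the called sites at either end of a contact, with the number of paired-end tags (PETs) that join them. The WT list held 35189 PETs in 19914 pairs between 8373 anchors, with a median anchor width of 1999 bp and 18973 kb covered in all. The KO list held 401726 PETs in 118475 pairs between 18293 anchors, with a median width of 2932 bp and 66996 kb covered. A pair of an anchor with itself held 33.0% of PETs in WT and 41.1% in KO. Anchors were listed separately for each genotype and there is 1 list each, so no difference between them was tested. Levels are given as PETs and as PETs per 10000 in the list, with exact Poisson 95% intervals that cover counting error only.

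An anchor lay within 2500 bases of the 5′ end of 28 of the 41 genes with a listed start in WT, where 50.3% of all tested genes with a start had one. In KO the count was 40 of 41, where 72.2% of all tested genes had one. All 28 anchored in WT were anchored in KO, 12 (29.3%) were anchored in KO alone, where 25.6% of all tested genes were, and Med10 in neither. The 12 were Stag1, Pds5b, Zfp281, Cdk8, Med11, Med12, Med13, Med16, Med17, Med20, Med27 and Med31. The 5′ end here is the outermost one of the gene. With an anchor at any listed start counted instead, Stag1 had one in WT and Med10 one in KO, which gave 29 of 41 in WT (51.8% of all tested genes) and 41 of 41 in KO (74.1%). The shares anchored in WT and in KO were above those of all tested genes, and the share anchored in KO alone was near theirs. With only pairs of at least 2 PETs counted, the WT number was 17 (25.4% of all tested genes) and the KO number 36 (62.4%). The median anchored gene of the set held 5.5 PETs in WT (4 for all tested genes) and 27.5 in KO (19 for all), or 1.56 and 0.685 per 10000 (1.14 and 0.473 for all).

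**Figure D4:**
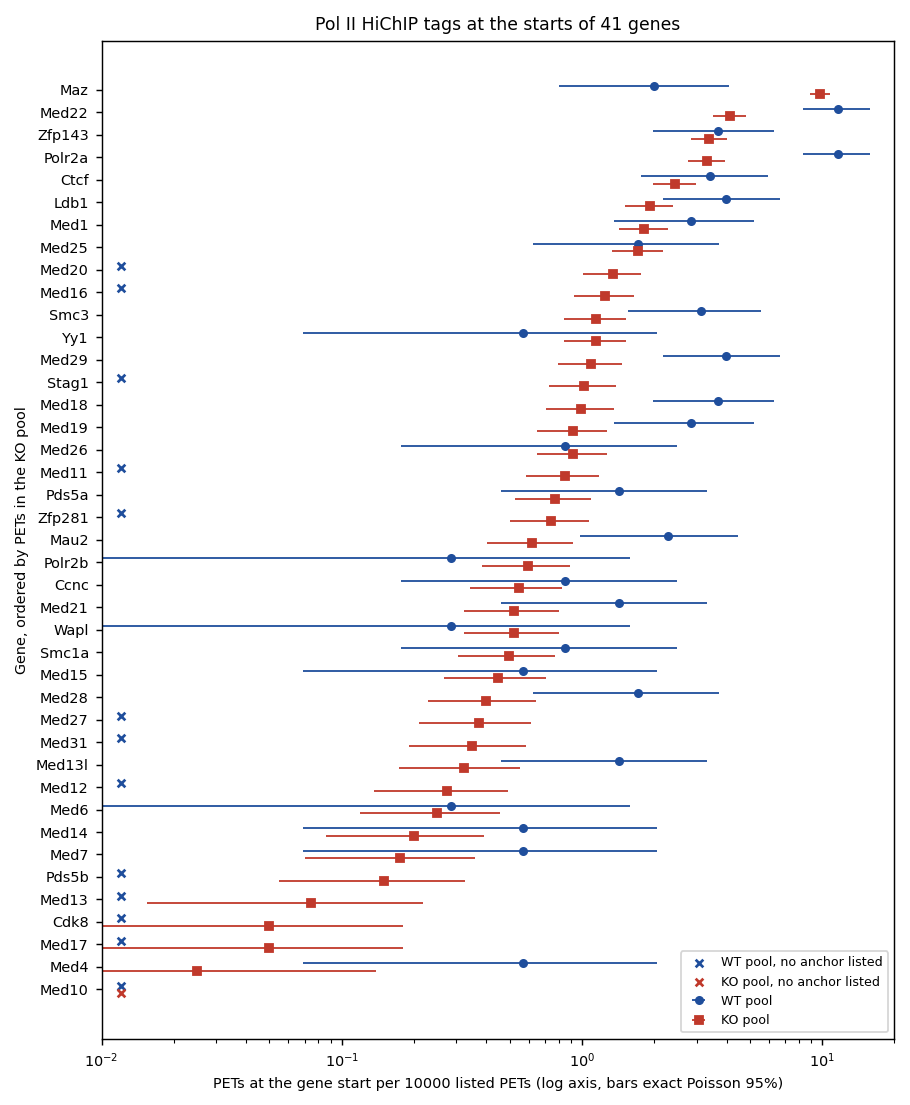
PETs at the gene start per 10000 listed PETs (log axis) for 41 genes in the WT pool (blue) and the KO pool (red), with exact Poisson 95% intervals for counting error; crosses at the left edge mark genes with no anchor listed. Polr2a and Med22 are highest in WT, at 11.7 each (for Med22 over 2 anchors), and Maz is highest in KO, at 9.81.

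Polr2a, the largest subunit of Pol II, was itself one of the 2 genes of the set with most Pol II tags at the start in WT. The other, Med22, was counted over 2 anchors. The start anchor of Polr2a held 41 PETs in WT, or 11.7 per 10000 (8.36 to 15.8), and 133 in KO, or 3.31 per 10000 (2.77 to 3.92). The anchor was 2243 bp wide in WT and 4794 bp in KO. In WT it was paired with 20 other anchors, the strongest at the start of Eif4a1, 87.0 kb downstream, with 7 PETs, and at that of Nlgn2, 80.2 kb upstream, with 4. In KO it was paired with 32, the strongest an anchor 66180 bp wide that covers the starts of Eif4a1, Senp3, Cd68 and Sox15, 71.0 kb downstream, with 28 PETs. The start of Eif4a1 lay under the strongest partner in both lists. The KO partner is the widest anchor of its list, so its 28 PETs cannot be placed at Eif4a1 alone. The 250 bases before the start of Polr2a lie inside both anchors and hold none of the 5 motifs searched:
Polr2a (chr11:69758634-69758883, minus strand): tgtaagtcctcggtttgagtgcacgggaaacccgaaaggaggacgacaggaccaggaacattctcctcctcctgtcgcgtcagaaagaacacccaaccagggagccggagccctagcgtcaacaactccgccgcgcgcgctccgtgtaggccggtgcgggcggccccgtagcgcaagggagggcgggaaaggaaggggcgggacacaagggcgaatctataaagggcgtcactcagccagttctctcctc

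Among the loop factors, Zfp143 held 13 PETs in WT, or 3.69 per 10000 (1.97 to 6.32), and 136 in KO, or 3.39 per 10000 (2.84 to 4.0), in anchors of 3407 and 9329 bp. Its strongest KO pair joined it to the start of Ipo7, 43.1 kb upstream, with 12 PETs. The pair with Tmem41b held 2 PETs in WT and 9 in KO. Ctcf held 12 PETs in WT, or 3.41 per 10000 (1.76 to 5.96), and 98 in KO, or 2.44 (1.98 to 2.97). Its 5 WT pairs had 1 PET each, one of them with the start of Nutf2, and its strongest KO pair joined it to an anchor over Nutf2, Thap11 and Cenpt, 220.2 kb downstream, with 11 PETs. For both genes the intervals of the 2 lists overlapped.

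Maz was the gene with most PETs in KO, with 394 at its start, or 9.81 per 10000 (8.86 to 10.8), against 7 in WT, or 1.99 (0.80 to 4.10). Its KO anchor was 13217 bp wide and its WT anchor 3245 bp, and 2 further WT anchors were centred 5510 and 9280 bp downstream of the 5′ end. The KO anchor also covered the WT anchor centred 5510 bp downstream, which held 4 PETs within itself and 20 to other anchors. So the 394 and 7 PETs do not come from the same stretch of DNA. The KO anchor was joined by 44 PETs to one at Mvp and Pagr1a, 9.47 kb away, and the same neighbour took 2 PETs from the WT start anchor. The width of the anchors moved with this difference, and its part was not tested.

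Ldb1 held 14 PETs in WT and 77 in KO, or 3.98 (2.18 to 6.68) and 1.92 (1.51 to 2.40) per 10000, and was joined to Pprc1 in both, with 3 and 8 PETs. Its start anchor was 3466 bp wide in WT and 11846 bp in KO. The KO anchor also covered the WT anchors centred 6002 and 9493 bp downstream of the 5′ end, with 5 and 8 PETs. Yy1 held 2 and 46, of which 30 in KO lay within the anchor itself, and was paired with Evl in both, with 1 and 2 PETs. Smc3 held 11 and 46, and its pair with the start of Smndc1, 209 kb upstream, had 3 PETs in WT and 8 in KO. Zfp281 had no anchor at its start in WT and 30 PETs in KO, the strongest pair leading to Gm19705, 52.9 kb downstream, with 7. Pairs that recurred in both lists were thus found at starts of cohesin, CTCF and loop factor genes alike, most of them with few PETs.

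**Figure D5:**
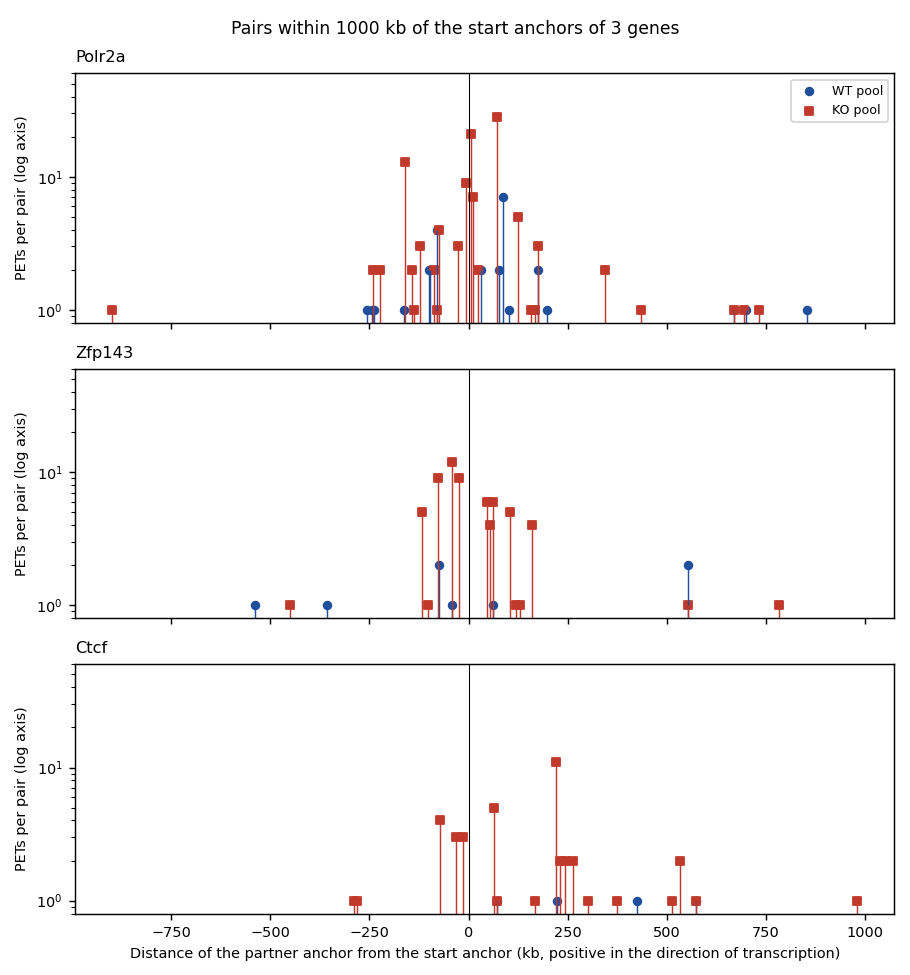
Pairs within 1000 kb of the start anchors of Polr2a, Zfp143 and Ctcf: distance of the partner anchor in kb (x axis, positive in the direction of transcription) and PETs per pair (y axis, log), WT in blue and KO in red. In WT and KO, Polr2a has 16 and 25 such pairs, Zfp143 6 and 15, and Ctcf 4 and 18.

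Of the Mediator genes, Med22 had most PETs at its start, 41 in WT and 166 in KO, or 11.7 (8.36 to 15.8) and 4.13 (3.53 to 4.81) per 10000. Its start lies in a cluster of closely spaced genes, and the anchors also cover starts of Rpl7a, Surf1 and Surf2, so these PETs cannot be assigned to Med22 alone. Such sharing with another gene's start was found for 8 of the 28 genes anchored in WT and 11 of the 40 in KO, among them Med29 with Paf1, Med25 with Fuz and Smc1a with Ribc1. Med29 held 14 PETs in WT and 44 in KO, and its strongest WT pair led to Zfp36 and Plekhg2, 17.5 kb away, with 4. Med18 held 13 and 40, and was joined to Sesn2 in both lists, with 2 and 4 PETs. Med1 held 10 and 73, and its strongest KO pair led to the start of Cdk12, 9.65 kb away, with 6.

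In the kinase module, Ccnc held 3 PETs at its start in WT, or 0.853 per 10000 (0.176 to 2.49), and 22 in KO, or 0.548 (0.343 to 0.829). In WT 2 of the 3 joined it to Usp45, the neighbour 47.7 kb downstream whose log2 fold change was -0.77. In KO 2 further anchors were listed over the body of Ccnc. They held 14 and 10 PETs within themselves and 39 and 43 to other anchors. Cdk8 had no anchor at its start in WT and 2 PETs in KO, and Med12 and Med13 likewise had none in WT and 11 and 3 in KO. Med13l held 5 PETs in WT, or 1.42 per 10000 (0.461 to 3.32), and 13 in KO, or 0.324 (0.172 to 0.553). The intervals of the 2 lists overlapped for Ccnc and Med13l, which count few PETs in WT. The 250 bases before the start of Ccnc, the gene with the smallest p in RNA, hold none of the 5 motifs searched:
Ccnc (chr4:21727451-21727700, plus strand): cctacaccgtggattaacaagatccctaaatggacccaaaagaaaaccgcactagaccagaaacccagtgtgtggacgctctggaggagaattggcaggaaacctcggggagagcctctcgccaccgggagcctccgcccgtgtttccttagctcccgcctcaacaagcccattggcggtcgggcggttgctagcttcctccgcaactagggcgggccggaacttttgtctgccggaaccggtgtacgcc

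The start anchors of the set made 139 pairs in WT and 611 in KO. In WT 82% of the partners lay at a gene start, against 70.9% for all tested genes, and in KO 56.1% against 55.4%. The median distance was 239 kb in WT and 332 kb in KO. A single PET supported 77.0% of the WT pairs and 66.9% of the KO pairs. Only 1 pair led from an anchor at a gene of the set to a listed start of another. It joined an anchor in the body of Polr2a and the start of Med11, 705 kb apart on chromosome 11, with 1 PET in KO. Pairs between 2 gene bodies, or with a partner at the 8 genes without a listed start, were not searched.

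The 8 genes without a listed start, Rad21, Stag2, Nipbl, Med8, Med23, Med24, Med30 and Cdk19, were examined over the gene body. Counted that way, 31 of all 49 genes had an anchor in WT, against 51.2% of all tested genes with a position, and 48 in KO, against 73.3%. Rad21 had 1 PET between different anchors in WT and 80 in KO, with 42 more within single anchors. The 80 include PETs that join its own 2 anchors to each other. Cdk19 had 5 PETs between different anchors in WT and 54 in KO, where the 54 include PETs among its own 3 anchors. Med24 had no anchor in either list, and the remaining 5 had none in WT and between 1 and 9 PETs to other anchors in KO.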

How the data were processed

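The authors deposited raw read counts per Ensembl gene for 4 RNA-seq libraries and 1 list of anchor pairs with PET counts per genotype; HISAT2 2.1.0, HTSeq 0.9.1, DESeq2 1.18.1, HiC-Pro 2.11.4 and the build mm10 are named in the submitters' processing notes. Reads assigned to no feature (37.2% to 40.5% per library) and the other summary rows were left out. Symbols matched 52403 of 52636 identifiers. Genes passing filterByExpr were fitted in edgeR 4.0.16 (R 4.3.3; TMM, quasi-likelihood F-test, common coefficient of variation 0.256, 2 residual degrees of freedom), with Benjamini-Hochberg adjustment over 15517 genes and a threshold of 0.05. DESeq2 1.42.0, limma 3.58.1 voom, other scalings and filters, and leaving out each library were alternatives. The scripts were tested on simulated data. Paralog shares use unscaled counts, as no exon lengths were at hand, although length scaling had been planned. Anchors were matched to RefSeq GRCm38 starts within 2500 bases, with widths of 1000 and 5000, any listed start, and pairs of 2 different anchors as alternatives, the last 2 chosen after seeing the data. The members and lists were chosen with earlier results of these data known. Values are given in full for genes called in any fit, the smallest p of each group, the 4 paralog pairs, the 6 genes with most PETs in each list, and up to 2 genes per related list; other genes named were chosen after their values were seen.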

Additional observations from a re-analysis of the deposited data

How the results depend on the processing

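Leaving out each library in turn, with the spread taken from the other genotype, gave 0 to 7 called genes, and a median log2 fold change of 0.15 (without WT replicate 2) to 0.32. No other scaling, filter or tool called a member. Without the low-count filter Klf4 itself had an edgeR FDR of 0.073 and 2 genes were called in all, against 1288 with it; without WT replicate 1, 2517 were. Of the 26 genes given in full, 15 kept their sign throughout. Signs turned, over the libraries left out, for Cdk19 (-0.086 without WT replicate 2, to 0.52), Maz (-0.034 without WT replicate 1, to 0.33), Med12 (-0.14 without WT replicate 2 and -0.0049 without KO F, to 1.39), Med13 (-0.019 without KO F, to 1.04), Med13l (-0.21 without WT replicate 2, to 0.92), Med18 (-0.21 to 0.049 without KO B), Med22 (-0.15 to 0.10 without KO B), Med29 (-0.41 without WT replicate 1 and -0.15 without KO B, to 0.56), Polr2a (-0.09 without WT replicate 2 and -0.10 without KO F, to 0.45), Stag1 (-0.52 to 0.023 without WT replicate 1) and Stag2 (-0.044 without KO F, to 0.73). The cause was not tested. Over the same libraries left out, the KO minus WT share in percentage points ran from -14.1 to -5.84 for Stag1, -4.34 to -1.32 for Pds5a, 2.78 to 7.38 for Cdk8 and -4.85 to 0.72 for Med13l; shares scaled by length were not run. Starts anchored in WT numbered 17 with pairs of at least 2 PETs and 7 with at least 4. No paired analysis was possible because the KO columns carry letters and no replicate numbers. The depth of the WT list limits comparison of PETs.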
